A study of Mus musculus with 204 samples.

Results

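The genes described here are 6 nuclear genes for the breakdown of fatty acids in mitochondria: Acadm, Acadl, Decr1, Hadh, Etfdh and Dbi. They were chosen by name, from a list of genes given for this pathway, with earlier results of these data known. Counts of members set beside shares of all genes are therefore descriptions and no independent test. The members are 6 of the 13153 genes analysed here. All 6 were measured in all 204 libraries, with at least 183 reads in each. All 6 passed the filter on low values in each of 21 tissues. RNA was sequenced from tissues of adult male C57BL/6J mice, an inbred wild-type strain that becomes obese on fatty food. The diet-induced obese (DIO) mice ate a diet with 60% fat for 10 weeks from 4 weeks of age, and the lean mice stayed on chow with 13.1% fat. Each tissue had 5 libraries of either diet, with 3 exceptions: 3 DIO libraries came from subcutaneous fat, 4 DIO and 3 lean from mesenteric fat, and 4 lean from EDL, a fast leg muscle named in full extensor digitorum longus. The labels did not tie libraries to mice and gave a second, conflicting age (6 to 12 weeks on arrival), so p-values below measure the spread between libraries.

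In the mitochondrial matrix fatty acids are shortened as acyl-CoA, in a repeating cycle of dehydrogenation, hydration, a further dehydrogenation and cleavage. Acyl-CoA dehydrogenases start each turn of the cycle: Acadm encodes the medium-chain enzyme and Acadl the long-chain enzyme, and the electrons they take pass through electron transfer flavoprotein to its dehydrogenase, encoded by Etfdh, and on to ubiquinone in the respiratory chain. Hadh encodes the hydroxyacyl-CoA dehydrogenase of the later step, and Decr1 encodes the dienoyl-CoA reductase that lets unsaturated fatty acids enter the cycle. Dbi encodes acyl-CoA-binding protein, a carrier of acyl-CoA that acts mainly in the cytosol and is not an enzyme of the cycle. Heart, oxidative muscle, brown fat and liver are known for a high capacity of this pathway, and brain for a low one.

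Acadl (chr1:66830839-66863277) and Dbi (chr1:120113280-120121078) lie on chromosome 1, Acadm (chr3:153922357-153944632), Hadh (chr3:131233419-131272101) and Etfdh (chr3:79603788-79629500) on chromosome 3, and Decr1 (chr4:15917240-15945507) on chromosome 4, all on the minus strand of GRCm38 in GENCODE M21. Because the members moved together in several tissues, promoters of 4 of them are shown, from 250 bases before to 50 bases after the RefSeq start on GRCm38.p6, in the direction of transcription (5 of the 6 genes had an entry there, and Decr1 had none). Capitals mark exact matches on either strand to 5 motifs: the nuclear receptor motif AGGTCA, its direct repeat with any 1 base between the copies (DR1), the estrogen-related receptor element TNAAGGTCA, the NF-Y box CCAAT and the GC box GGGCGG. The windows are chr3:153944594-153944893, chr1:66863260-66863559, chr3:131272052-131272351 and chr3:79628718-79629017. The Etfdh window lies wholly inside the GENCODE gene given above, so it does not cover the bases before the GENCODE start.
Acadm: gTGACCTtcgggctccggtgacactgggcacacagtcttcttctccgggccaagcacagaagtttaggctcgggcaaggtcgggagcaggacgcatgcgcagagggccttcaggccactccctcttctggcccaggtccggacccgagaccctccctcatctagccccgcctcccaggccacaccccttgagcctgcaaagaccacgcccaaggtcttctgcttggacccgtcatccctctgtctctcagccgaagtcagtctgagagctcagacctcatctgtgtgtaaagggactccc
Acadl: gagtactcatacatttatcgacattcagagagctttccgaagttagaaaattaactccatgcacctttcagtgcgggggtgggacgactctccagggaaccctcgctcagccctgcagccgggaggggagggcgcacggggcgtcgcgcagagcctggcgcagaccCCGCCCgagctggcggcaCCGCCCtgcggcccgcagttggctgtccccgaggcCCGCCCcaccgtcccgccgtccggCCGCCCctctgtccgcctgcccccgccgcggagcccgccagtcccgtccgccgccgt
Hadh: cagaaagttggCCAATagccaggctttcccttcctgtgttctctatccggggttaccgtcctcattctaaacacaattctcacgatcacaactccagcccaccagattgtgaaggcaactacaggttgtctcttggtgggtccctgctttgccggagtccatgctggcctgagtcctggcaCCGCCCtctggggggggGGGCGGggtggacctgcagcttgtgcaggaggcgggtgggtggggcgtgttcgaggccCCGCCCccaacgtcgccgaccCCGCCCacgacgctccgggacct
Etfdh: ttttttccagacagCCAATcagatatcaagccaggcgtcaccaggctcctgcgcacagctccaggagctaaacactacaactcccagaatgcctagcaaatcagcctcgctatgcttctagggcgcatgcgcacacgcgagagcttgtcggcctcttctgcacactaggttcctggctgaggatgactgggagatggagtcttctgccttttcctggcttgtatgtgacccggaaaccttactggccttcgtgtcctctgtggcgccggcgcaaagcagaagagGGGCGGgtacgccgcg
Acadm held 1 AGGTCA, written TGACCT on this strand, 249 bases before the start, a motif present in 16.3% of 32851 promoters of the same length. Acadl held 4 GC boxes, Hadh 4 GC boxes and 1 NF-Y box, and Etfdh 1 of each, where 35.7% of all promoters held a GC box and 37.4% an NF-Y box. None of these 4 windows matched DR1, which was found in 0.0396% of promoters, or the estrogen-related receptor element, found in 1.28%, both of which contain AGGTCA. The absence of a match means only that these letters are not in these windows. No motif of the 5 was found in all 4 promoters.

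The median library held 20.7 M reads; the smallest held 6.58 M and the largest, a DIO epididymal fat (eWAT) library, 129.7 M, with the next at 30.9 M. The deposited values covered chromosomes 1, 2, 3 and X and the first 40.3 Mb of chromosome 4; genes elsewhere, among them most other genes of the pathway, were not analysed here. Several libraries stood apart by a marker gene. Of the 10 adrenal libraries, DIO 1, DIO 2 and lean 1 had between 0 and 0.173 CPM (reads of a gene scaled to a common library total) of the adrenal cortex gene Hsd3b1, against 4239 to 12650 CPM in the others. The lymphocyte genes Cr2 or Cd2 were highest of their tissue in subcutaneous lean 2 and 3, mesenteric DIO 2, retroperitoneal DIO 3, jejunum DIO 5 and ileum DIO 1, and the muscle gene Tnnc2 in brown fat DIO 5 and lean 2, retroperitoneal lean 2 and stomach lean 2. Fabp4, a fat gene, was highest of its tissue in EDL DIO 3 and colon lean 3, and the hepatocyte gene Apoa2 in stomach lean 5. In heart, lean 3 had the highest level of Fabp4 (1118 CPM, against 321 to 581 CPM in the other 9), and lean 5 stood at -2.20, and the other 9 between 0.0743 and 1.06, on an index chosen with these data known, the mean log2 level of 5 genes (Rpl22l1, Ndufc1, Atp5e, Cops9, Rpl39) minus that of 5 others (S100a1, Kantr, Dynlrb1, Ubap2l, Ncoa6). The index was widely spread in other tissues too. In cerebral cortex DIO 1, DIO 3, DIO 5 and lean 3 stood between -0.514 and -0.403, and the others between -2.76 and -2.31. Libraries were not left out on this ground outside heart. Diet changes that rest on the libraries named by a marker gene, or on heart lean 5, are given with and without them. Levels by tissue, their order and the correlations below include all libraries.

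In lean mice brown fat was highest for each of the 5 enzymes, with a median of 2057 CPM for Acadm, 2532 CPM for Acadl, 1204 CPM for Hadh, 947 CPM for Etfdh and 895 CPM for Decr1. No lean library of another tissue reached the brown fat range for any of these 5 genes. Heart came next for Acadm (974 to 1309.9 CPM over its 5 lean libraries) and Etfdh (506 to 741 CPM). For both it was clear of the tissue that followed by median, but adrenal lean 1 lay within the heart range (1243 CPM for Acadm and 567.5 CPM for Etfdh). For Acadl (675 to 1012 CPM) and Decr1 (268 to 461 CPM) heart was also next by median, but its range overlapped that of the tissues behind it, adrenal and mesenteric fat. Hadh differed from the rest in its place in the gut: jejunum (756 to 920.5 CPM) and duodenum (529 to 1090.4 CPM) followed brown fat, with overlapping ranges, ahead of adrenal and heart.

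The 4 brain regions were lowest by lean median for all 5 enzymes. For Etfdh the lean stomach (34.3 to 107.9 CPM) overlapped brain, for example cerebellum (38.9 to 43.8 CPM). Over the 40 brain libraries of both diets, Acadm lay between 26.1 and 43.4 CPM, Decr1 between 14.2 and 30.5 CPM and Hadh between 15.8 and 35.7 CPM. Dbi in the same libraries ranged from 58.0 to 207 CPM. Dbi was highest in white fat, with lean medians of 1827 CPM in subcutaneous, 1758 CPM in retroperitoneal, 1677 CPM in mesenteric and 1669 CPM in eWAT, and 1437 CPM in brown fat, ranges that overlapped from one to the next. It was lowest in red gastrocnemius (65.0 to 70.1 CPM), the oxidative part of a leg muscle, in EDL (47.5 to 79.5 CPM) and in cerebral cortex, whose ranges also overlapped.

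**Figure D1:**
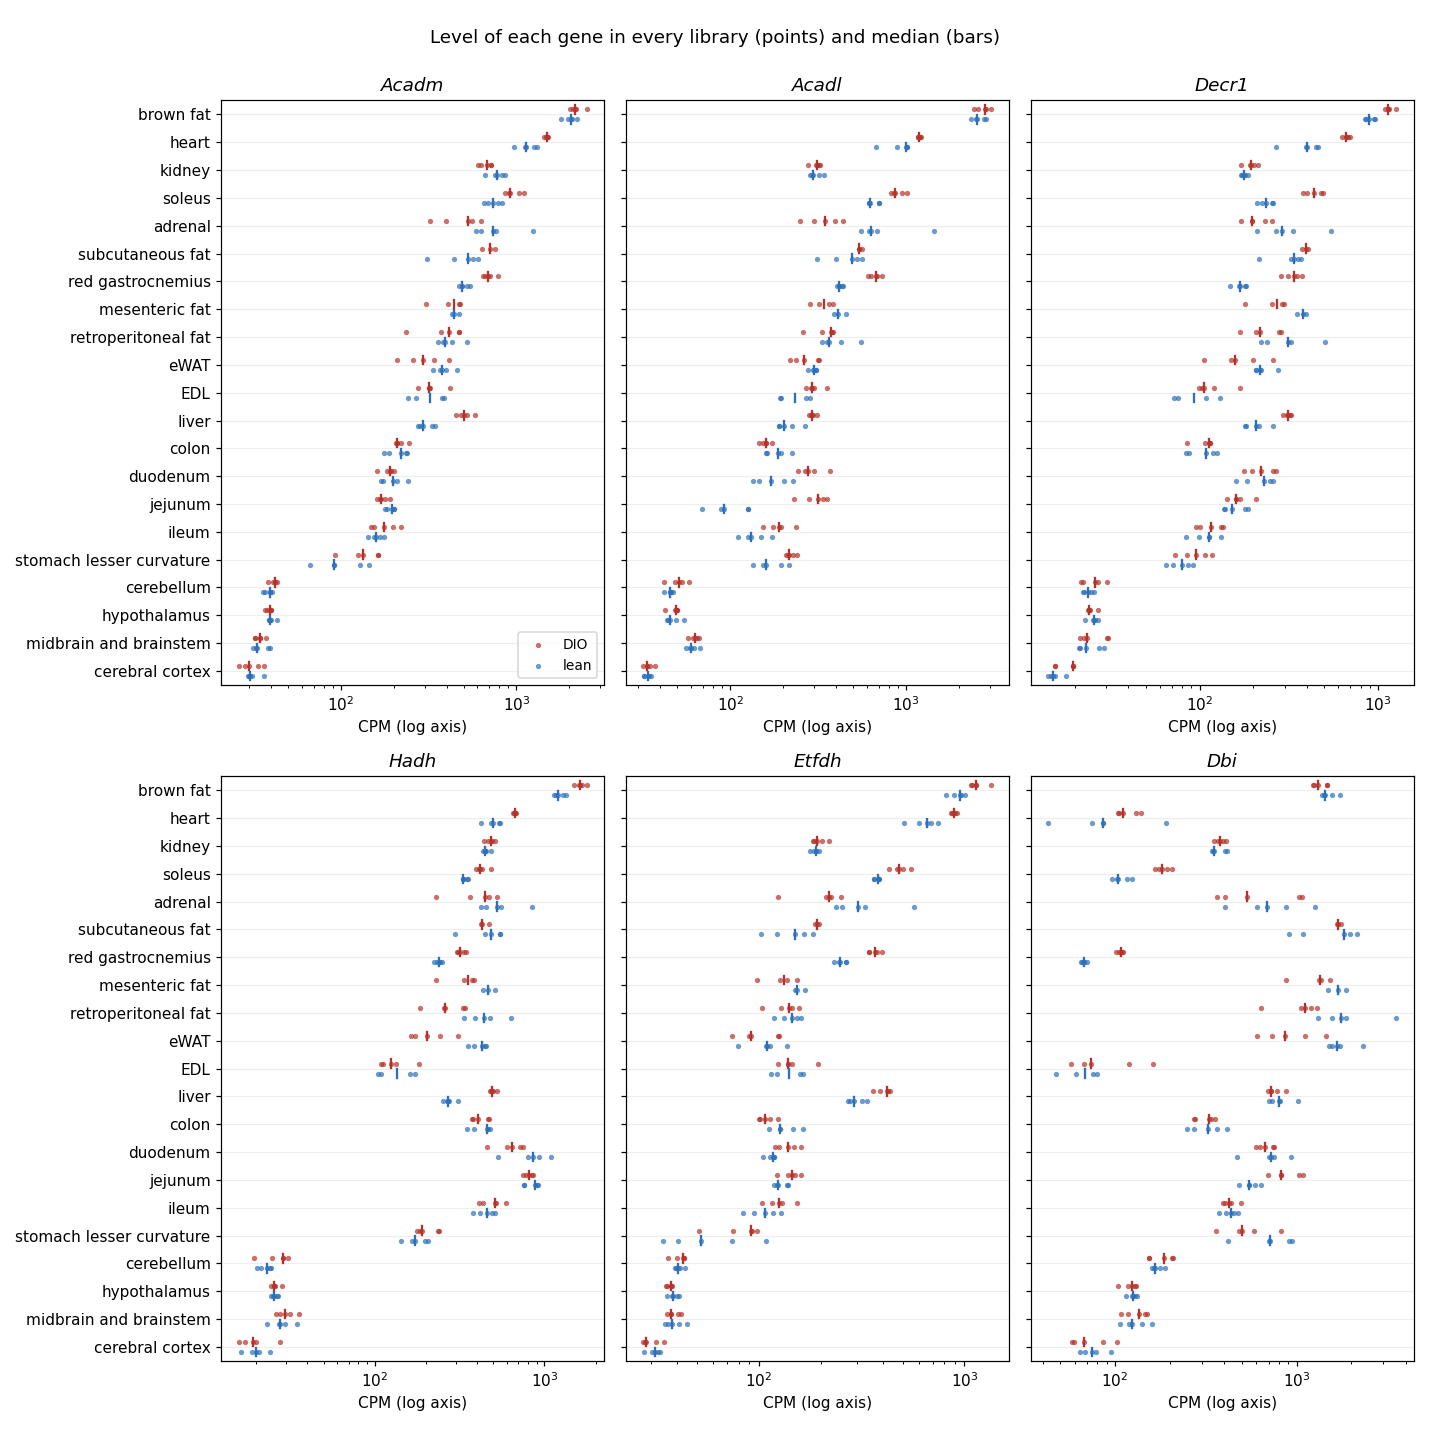
Level of each of the 6 genes in every library, in CPM on a log axis, with DIO libraries in red above lean libraries in blue for each of 21 tissues; bars mark medians, and tissues are ordered by the lean median of Acadm. By lean median brown fat leads for the 5 enzymes and the brain regions are lowest, while Dbi is highest in white fat and low in heart and muscle.

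Compared between genes per kilobase of exon (GENCODE M21; the annotation used for the deposited values is not given in the sources used here), Dbi was the highest member in 16 of 21 lean tissues and Acadl in the other 5, which were brown fat, soleus, red gastrocnemius, heart and EDL. In lean heart Acadl stood at 494 and Dbi at 60.0 CPM per kilobase; in lean liver Acadl stood at 100.4 and Dbi at 563. Per kilobase, Etfdh was the lowest member in 18 tissues. The length took in every annotated exon of a gene, 7505 bases for Etfdh and 1422 for Dbi, whether or not the exon was in use. The order thus depends on that length. By lean median CPM Etfdh was lowest in some tissues, such as eWAT (109.9, against 219 for Decr1). In others it was not, such as liver (289, against 201 for Acadl). Over the 21 lean tissue medians the 5 enzymes varied alike, as a description with no test: among 3401 genes, Acadl was closest to Acadm (Pearson r 0.957 on log2 levels), followed by Etfdh (0.943) and Decr1 (0.936). The genes closest to Acadl were Acadm, Etfdh (0.921) and Mpc2 (0.919), a subunit of the mitochondrial pyruvate carrier. Decr1 was closest to Acadm, Acadl (0.918) and Hadh (0.916), and Etfdh to Acadm, Fh1 (0.935), which encodes fumarase, and Acadl. Hadh was closest to Apool (0.949), a protein of the mitochondrial inner membrane, Decr1 and Mavs (0.905), a signalling protein of the outer membrane. The genes closest to Dbi were no members: Pex16 (0.961), a peroxisome assembly gene, Bcap31 (0.946), of the endoplasmic reticulum, and Mnd1 (0.942), a meiosis gene; r between Dbi and the enzymes was 0.201 to 0.598. The 21 points share no library but include related tissues.

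Between diets, limma with Benjamini-Hochberg adjustment over all genes tested in a tissue called 21 of the 126 pairs of gene and tissue higher in DIO and 5 lower, at an adjusted p of 0.05. The 21 higher calls lay in red gastrocnemius, soleus, liver, brown fat and jejunum, and the 5 lower calls in 3 white fat depots. In 13 tissues no member passed. Acadl, Decr1, Hadh and Etfdh were each called higher in 4 tissues, Dbi in 3 and Acadm in 2; Hadh and Dbi were each called lower in 2 and Decr1 in 1. Changes below are log2 of DIO over lean ± SE on log2(CPM + 1). In bulk tissue, fewer cells of a type and less RNA per cell cannot be told apart.

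**Figure D2:**
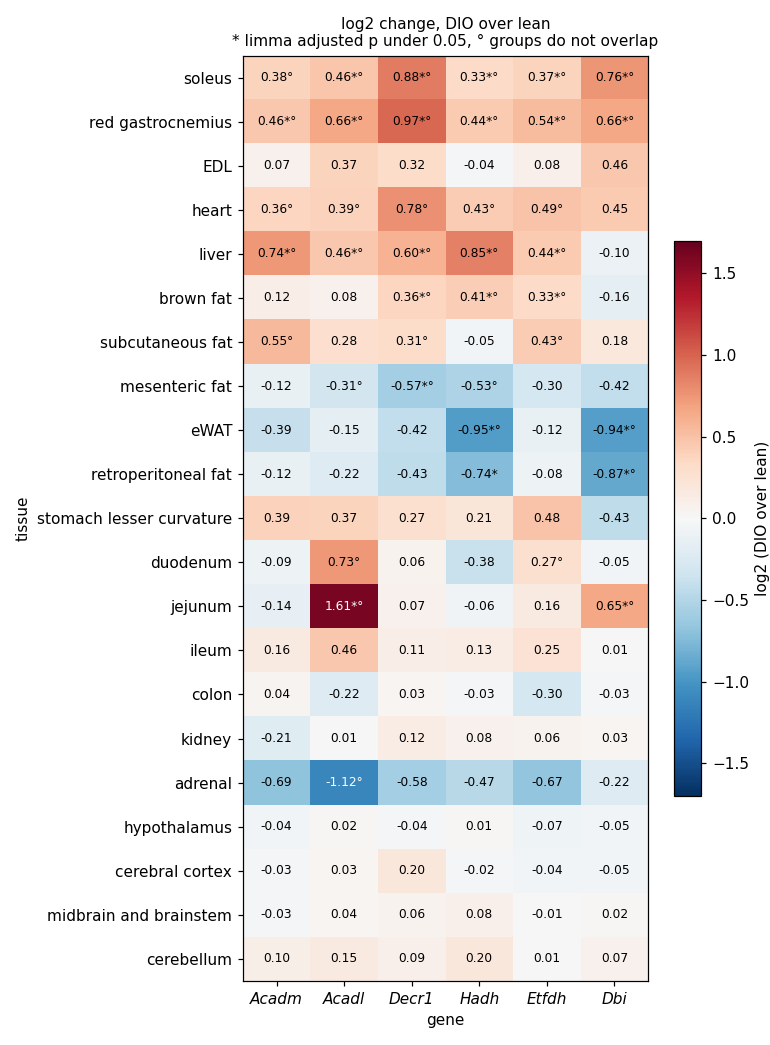
Log2 change of DIO over lean for the 6 genes (columns) in 21 tissues (rows), red where DIO was higher and blue where it was lower. An asterisk marks a limma adjusted p under 0.05 and a circle marks groups that do not overlap; the largest value is Acadl in jejunum at 1.61.

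In red gastrocnemius all 6 members rose in DIO mice, by 0.44 to 0.97 on the log2 scale, while 3.29% of the 1640 genes tested there were called higher. Of the dehydrogenases that open the cycle, Acadm stood at 662, 704, 781, 684 and 644 CPM in DIO libraries, against 541, 491, 471, 525 and 488 CPM in lean libraries. Acadl had 607, 681, 732, 676 and 633 CPM in DIO libraries, against 432, 416, 416, 438 and 405 CPM in lean libraries. Every DIO library lay above every lean library for both genes, and the change was 0.46 ± 0.055 for Acadm (limma adjusted p 0.000452) and 0.66 ± 0.048 for Acadl (1.39e-05). Etfdh, which takes their electrons onward, had 342, 375, 395, 368 and 344 CPM in DIO libraries, against 265, 245, 247, 265 and 231 CPM in lean libraries. Hadh stood at 316, 338, 343, 303 and 309 CPM in DIO libraries, against 243, 231, 238, 249 and 222 CPM in lean libraries. Neither gene's groups overlapped, with changes of 0.54 ± 0.051 (limma adjusted p 9.42e-05) and 0.44 ± 0.044 (0.000111). Decr1, the reductase for unsaturated chains, showed the widest gap, with 313, 352, 373, 339 and 288 CPM in DIO libraries, against 179, 168, 165, 182 and 149 CPM in lean libraries. That was a change of 0.97 ± 0.074 (limma adjusted p 1.39e-05). Dbi, at its lowest among tissues here, had 101, 108, 111, 109.7 and 105 CPM in DIO libraries, against 67.4, 65.0, 65.6, 70.1 and 67.1 CPM in lean libraries. The Dbi groups were narrow and far apart (0.66 ± 0.036, limma adjusted p 1.25e-06). All 6 members had groups apart in this muscle, where 3.54% of genes had every DIO library above every lean one. All 6 passed without any 1 library; with a spread shared by all 21 tissues, Acadl, Decr1 and Etfdh passed and the other 3 did not. The summed level of 5 muscle markers was 23200 to 25910 CPM in DIO and 26790 to 28710 CPM in lean libraries, and its part in the result was not tested.

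Soleus, a slow and oxidative leg muscle, gave the same direction for all 6 members, and 5 passed where 1.12% of 1691 genes were called higher. Decr1 had 382, 480.2, 436, 494 and 402 CPM in DIO libraries, against 259, 255, 225, 235 and 209.8 CPM in lean libraries. Dbi had 176, 205, 193, 180.4 and 165 CPM in DIO libraries, against 123, 117, 96.6, 103 and 103 CPM in lean libraries. These were the largest changes of the 6, at 0.88 ± 0.085 (limma adjusted p 0.000667) and 0.76 ± 0.079 (0.000828), and the groups lay far apart. Among the dehydrogenases, Acadl stood at 824, 942, 858, 1016 and 851 CPM in DIO libraries, against 703, 698, 611, 615 and 621 CPM in lean libraries. Acadm stood at 865, 1035, 915, 1103 and 907 CPM in DIO libraries, against 828, 783, 652, 692 and 739.7 CPM in lean libraries. Both had groups apart; Acadl changed by 0.46 ± 0.07 and passed (limma adjusted p 0.00841), whereas Acadm, at 0.38 ± 0.084, missed the threshold (adjusted p 0.0515). Etfdh had 429, 503, 483, 549 and 472 CPM in DIO libraries, against 385, 384, 363, 378 and 364 CPM in lean libraries. Hadh had 394, 410.1, 419, 487 and 427 CPM in DIO libraries, against 349, 356, 331, 330.0 and 331 CPM in lean libraries. The changes were 0.37 ± 0.061 (limma adjusted p 0.0121) and 0.33 ± 0.058 (0.0158), again with every DIO library above every lean one, as for 2.42% of all genes. Hadh no longer passed without lean 3, lean 4 or lean 5 (adjusted p 0.0546, 0.0553 and 0.0598), and Acadm passed without DIO 1 or lean 1 (0.0488 and 0.0407). A spread shared by all tissues kept Decr1 alone. Of the 2 fat cell markers tested, 1 rose in DIO soleus and their summed level was 405.7 to 559.8 CPM in DIO and 340.5 to 380.5 CPM in lean libraries; its part in the result was not tested.

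EDL, the fast muscle, showed no call. Decr1 had 106, 103, 119.8, 99.1 and 169 CPM in DIO libraries, against 76.2, 130.2, 71.7 and 109 CPM in lean libraries. Acadl had 288, 298, 289.9, 268 and 355 CPM in DIO libraries, against 194, 283, 191 and 269.5 CPM in lean libraries, and Dbi had 74.0, 67.8, 162, 57.3 and 119 CPM in DIO libraries, against 47.5, 79.5, 60.8 and 75.3 CPM in lean libraries. The groups overlapped for all 6 members, and 0% of 1462 genes were called higher. The differences ran from -0.038 ± 0.20 for Hadh to 0.46 ± 0.29 for Dbi (limma adjusted p at least 0.890 for all 6). Without DIO 3, the library with the most Fabp4, Dbi stood at 0.24 ± 0.23, Decr1 at 0.31 ± 0.23 and Acadl at 0.38 ± 0.17, and no member passed. The median log2 change of all genes in EDL was -0.12 before a rescaling with median ratios and -0.0031 after it. Rescaling thus raised the changes, to 0.49 ± 0.13 for Acadl and 0.43 ± 0.16 for Decr1, and no member passed. Whether the diet effect differed among the 3 muscles was tested by an F test of the interaction in limma: no member passed (lowest adjusted p 0.944, for Decr1), where 0.0614% of 1628 genes did. The unadjusted p of this F test was 0.00616 for Decr1, 0.0126 for Etfdh and 0.0292 for Hadh. It was 0.0579 for Acadm, 0.125 for Acadl and 0.510 for Dbi. The lack of calls thus does not show that the diet effect was equal in the 3 muscles.

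In heart, the 5 enzymes were higher in every DIO library than in every lean library, yet none passed the adjusted threshold. Acadm had 1518, 1495, 1469, 1489.7 and 1447 CPM in DIO libraries, against 1309.9, 1131, 1116, 1262 and 974 CPM in lean libraries. Acadl had 1171, 1172, 1204, 1215 and 1179 CPM in DIO libraries, against 1012, 887, 1011, 989.8 and 675 CPM in lean libraries. The DIO libraries lay close together and the lean ones were more spread, with lean 5 lowest for both genes. The differences were 0.36 ± 0.082 (limma adjusted p 0.159) and 0.39 ± 0.11 (0.399). Etfdh had 864, 872, 924, 901 and 894 CPM in DIO libraries, against 691, 656, 602, 741 and 506 CPM in lean libraries. Hadh had 683, 670.4, 663, 675 and 654 CPM in DIO libraries, against 543, 482, 497, 547 and 424 CPM in lean libraries. Decr1 had 676, 695, 665, 661 and 627 CPM in DIO libraries, against 449.8, 401, 394, 461 and 268 CPM in lean libraries. In all 3 genes lean 5 was again the lowest library, and the gap between diets was widest for Decr1. For these genes the differences were 0.49 ± 0.10, 0.43 ± 0.083 and 0.78 ± 0.13 (limma adjusted p 0.132, 0.12 and 0.0587).

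Groups apart in this direction were found for 1.60% of the 1753 genes tested in heart, and 0.114% were called higher. Without lean 5, where 0.624% of all genes were called higher, all 5 enzymes passed (limma adjusted p 0.0029 for Decr1, 0.0135 for Hadh, 0.0201 for Etfdh, 0.0365 for Acadl and 0.0454 for Acadm). Without lean 3 and lean 5, Decr1 (0.61 ± 0.062, adjusted p 0.0104), Hadh (0.35 ± 0.056, 0.0367) and Etfdh (0.36 ± 0.055, 0.0367) passed, with 0.346% of all genes called higher. The call thus depended on 1 library, and the direction did not. Dbi had 129.8, 138, 111, 105 and 104 CPM in DIO libraries, against 85.5, 85.3, 191, 75.1 and 42.8 CPM in lean libraries, where the overlap of the groups came from lean 3, the library with the most Fabp4.

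**Figure D3:**
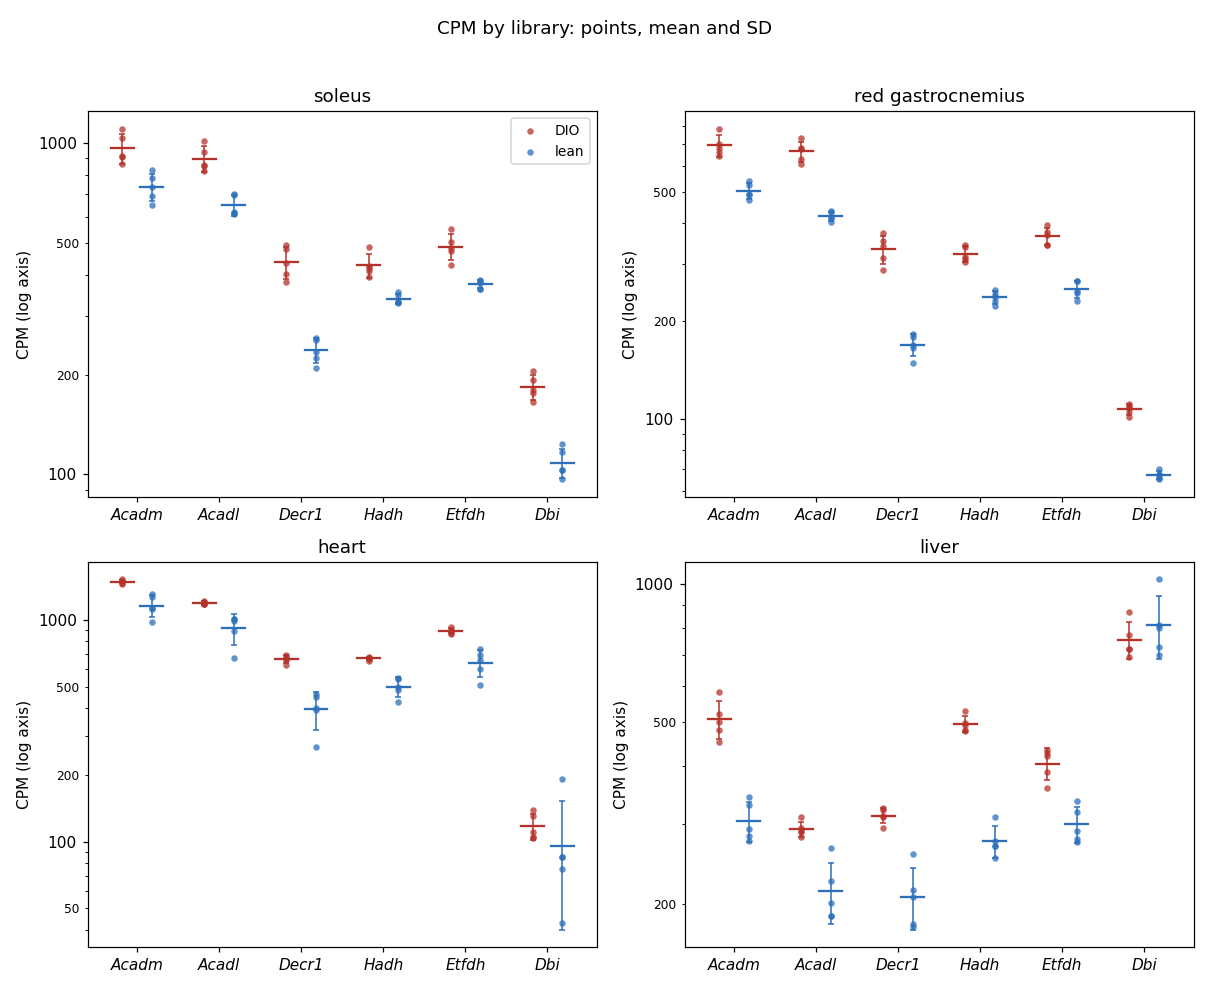
CPM of the 6 genes in each library of soleus, red gastrocnemius, heart and liver on log axes, DIO in red left of lean in blue, with the mean and SD of each group. All 6 genes are apart in both muscles, the 5 enzymes are apart in heart and liver, and Dbi overlaps in heart and liver.

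In liver the 5 enzymes rose and Dbi did not pass, against 20.9% of 1699 genes called higher. Hadh had 481, 491, 498, 529 and 479 CPM in DIO libraries, against 311, 252, 275, 268 and 268 CPM in lean libraries. Acadm had 453, 481, 520.3, 582 and 499 CPM in DIO libraries, against 343, 274, 292, 281 and 329 CPM in lean libraries. These were the largest changes in this organ, 0.85 ± 0.066 for Hadh (limma adjusted p 1.07e-05) and 0.74 ± 0.086 for Acadm (0.000184), with no overlap. Decr1 had 294, 321, 310.1, 324 and 312 CPM in DIO libraries, against 258, 179, 181, 208 and 215 CPM in lean libraries. Acadl had 281, 289, 287, 309.7 and 293 CPM in DIO libraries, against 266, 201, 188, 189 and 225 CPM in lean libraries. Etfdh had 358, 435, 427, 421 and 388 CPM in DIO libraries, against 337, 273, 289, 318 and 278 CPM in lean libraries. In each of the 3 the lowest DIO library lay above the highest lean library, lean 1, and the changes were 0.60 ± 0.094 (0.00103), 0.46 ± 0.092 (0.00418) and 0.44 ± 0.079 (0.00239). Dbi had 775, 869, 720.1, 694 and 720.1 CPM in DIO libraries, against 1023, 729, 700.4, 800.1 and 813 CPM in lean libraries. Its groups overlapped (-0.10 ± 0.10, limma adjusted p 0.528).

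Groups apart with DIO above lean were found for 13.4% of liver genes. Of 2 fat cell markers tested 1 rose, of 2 hepatocyte markers 1 fell, and the 1 enterocyte marker tested rose. Of all genes 20.9% rose and 6.06% fell, and the part of these markers in the result was not tested. The index of 10 genes named above lay between 0.258 and 0.503 in the DIO and between 0.582 and 0.926 in the lean livers, so it did not overlap between diets. With the index as a covariate, Hadh (limma adjusted p 0.00676) and Acadm (0.0487) passed and the other 3 enzymes did not (Acadl 0.326, Decr1 0.0915, Etfdh 0.0926). Over 9 alternative fits, this one among them, the lowest change was 0.279 for Acadl, 0.485 for Decr1 and 0.335 for Etfdh. What the index measures was not tested, and in liver it and the diet cannot be told apart.

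In brown fat, the tissue with the most of these enzymes, 3 members rose where 29.0% of 1746 genes were called higher. Hadh had 1631, 1595, 1666, 1776 and 1489 CPM in DIO libraries, against 1334, 1143, 1167, 1204 and 1280.0 CPM in lean libraries. Decr1 had 1133, 1145, 1143, 1263 and 1092 CPM in DIO libraries, against 960.3, 843, 895, 855 and 949 CPM in lean libraries. Etfdh had 1141, 1083, 1139, 1354 and 1086 CPM in DIO libraries, against 967, 811, 947, 892 and 1002 CPM in lean libraries. The groups were apart in all 3, a pattern shared by 20.5% of genes there, and the changes were 0.41 ± 0.064 (limma adjusted p 0.00037), 0.36 ± 0.059 (0.000548) and 0.33 ± 0.078 (0.00522). Acadm (0.12 ± 0.075, adjusted p 0.245) and Acadl (0.076 ± 0.077, 0.461) had overlapping groups, with Acadl between 2433 and 3049 CPM in DIO and between 2342 and 2831 CPM in lean libraries. Dbi had 1471, 1469, 1222, 1247 and 1302 CPM in DIO libraries, against 1740.2, 1437, 1408, 1571 and 1372 CPM in lean libraries. Its mean was lower in DIO (-0.16 ± 0.082) and missed the threshold (limma adjusted p 0.128), but passed after rescaling (-0.23 ± 0.087, 0.0458). Without DIO 5 and lean 2, the 2 libraries highest in Tnnc2, the same 3 genes passed, with 0.42 ± 0.07 for Hadh, 0.36 ± 0.068 for Decr1 and 0.30 ± 0.081 for Etfdh. In the libraries kept, Tnnc2 still stood at 0.138, 51.3, 17.7 and 56.6 CPM in lean and at 0.282 to 4.11 CPM in DIO. The part of this muscle gene in the result was not tested. With a spread shared by all tissues, Hadh alone passed. The summed level of 3 endothelial markers was 238 to 293 CPM in DIO and 111.5 to 162 CPM in lean libraries, and all 3 rose; their part in the result was not tested.

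In 3 of the 4 white fat depots the called members were lower in DIO. In eWAT, the visceral depot beside the testis, Hadh and Dbi fell, where 17.8% of 2155 genes were called lower. Hadh had 163, 242, 173, 202 and 308 CPM in DIO libraries, against 382, 452, 427, 354 and 448 CPM in lean libraries. Dbi had 603, 1113, 734, 858 and 1450.1 CPM in DIO libraries, against 1740.4, 2320.0, 1570.3, 1504 and 1669 CPM in lean libraries. Every DIO library lay below every lean library, as for 10.9% of genes, and the changes were -0.95 ± 0.18 (limma adjusted p 0.000596) and -0.94 ± 0.23 (0.00447). Decr1 had 105, 199, 158, 150.1 and 259 CPM in DIO libraries, against 206, 219, 219.9, 208 and 274 CPM in lean libraries, and DIO 5 alone lay within the lean range. Decr1 (-0.42 ± 0.21, adjusted p 0.0981) and Acadm (-0.39 ± 0.18, 0.0852) missed the threshold and passed without DIO 5 (adjusted p 0.0122 and 0.0156; 20.0% of all genes then called lower), while Acadl and Etfdh stood at -0.15 ± 0.14 and -0.12 ± 0.18.

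Rescaling mattered in the visceral depots, since it lowered the median of all genes by 0.36 in mesenteric fat, 0.18 in eWAT and 0.26 in retroperitoneal fat on the log2 scale. With it the genes called higher and lower numbered 205 and 330 in mesenteric fat (848 and 154 before it), 586 and 588 in eWAT (782 and 384) and 422 and 387 in retroperitoneal fat (744 and 213). Relative to this shift, 4 members fell in eWAT: Hadh (-1.14 ± 0.17), Dbi (-1.13 ± 0.24), Decr1 (-0.61 ± 0.20) and Acadm (-0.58 ± 0.17), with limma adjusted p of 0.000166, 0.00155, 0.0185 and 0.0136. The summed level of 4 macrophage markers was 1322 to 4057 CPM in DIO and 120.3 to 178 CPM in lean eWAT, and that of 2 fat cell markers was 3769 to 10340 CPM in DIO and 12660 to 18660 CPM in lean eWAT. Both sets differed without overlap, and their part in the fall of the members was not tested.

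In retroperitoneal fat Hadh and Dbi were again the called members, where 10.0% of 2123 genes were called lower. Dbi had 1289, 1057, 638, 1199 and 1112 CPM in DIO libraries, against 1865, 1758, 3525, 1312 and 1555 CPM in lean libraries. Hadh had 339, 260.2, 184, 329 and 255 CPM in DIO libraries, against 441, 479, 635, 336 and 389.7 CPM in lean libraries. Dbi groups were apart, as for 6.59% of genes, and Hadh in lean 4 fell within the DIO range. The changes were -0.87 ± 0.27 (limma adjusted p 0.0198) and -0.74 ± 0.21 (0.012). Without DIO 3, highest in Cd2, and lean 2, highest in Tnnc2, Hadh still passed (-0.58 ± 0.20, adjusted p 0.0459) and Dbi did not (-0.72 ± 0.26, 0.0526), with 7.33% of all genes called lower. After rescaling Decr1 passed as well (-0.70 ± 0.24, 0.0388). The macrophage markers summed to 1051 to 3280 CPM in DIO and 89.3 to 174.5 CPM in lean libraries, and 4 lymphocyte markers to 120.1 to 663 CPM in DIO and 19.2 to 37.5 CPM in lean libraries. The 2 fat cell markers summed to 5561 to 10290 CPM in DIO and 12440 to 27280 CPM in lean libraries, and both fell. None of these sums overlapped between diets, and their part was not tested.

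In mesenteric fat, along the gut, 1 member fell, where 6.90% of 2232 genes were called lower. Decr1 had 256, 181, 289 and 298 CPM in DIO libraries, against 379, 393 and 353 CPM in lean libraries. Hadh had 336, 229.9, 385 and 373 CPM in DIO libraries, against 466, 511 and 433 CPM in lean libraries. Both had groups apart, as did Acadl (319, 284, 383 and 366 CPM (DIO), against 407, 454 and 389 CPM (lean)) and 9.41% of all genes. Decr1 passed (-0.57 ± 0.19, limma adjusted p 0.0407), and Hadh (-0.53 ± 0.20, 0.0601) and Acadl (-0.31 ± 0.14, 0.101) did not. The Decr1 call was lost without DIO 1, lean 1, lean 2 or lean 3 (adjusted p 0.0691, 0.112, 0.127 and 0.0900). Mesenteric DIO 2, highest in Cr2, was lowest for all 6 members; without it Decr1 (-0.42 ± 0.085, 0.00395) and Hadh (-0.36 ± 0.091, 0.00928) passed, with 9.49% of all genes called lower. After rescaling Decr1, Hadh, Acadl and Etfdh passed, at -0.94 ± 0.20, -0.90 ± 0.22, -0.68 ± 0.16 and -0.66 ± 0.17. The macrophage markers summed to 572 to 879 CPM in DIO and 97.3 to 138 CPM in lean libraries, the lymphocyte markers to 126.5 to 1200 CPM in DIO and 39.9 to 73.8 CPM in lean libraries, and the 2 fat cell markers to 6802 to 13510 CPM in DIO and 13540 to 15020 CPM in lean libraries. None of these sums overlapped between diets, 1 of the 2 fat cell markers fell, and their part was not tested.

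Subcutaneous fat had no call. Acadm had 634, 752 and 709.6 CPM in DIO libraries, against 439, 532, 311, 601 and 566 CPM in lean libraries. Etfdh had 192, 196 and 188 CPM in DIO libraries, against 122, 184, 103, 166 and 150.3 CPM in lean libraries. These 2 genes and Decr1 had every DIO library above every lean library, as did 20.2% of 2198 genes, and none passed (limma adjusted p 0.157, 0.18 and 0.312; 8.83% of genes were called higher). Without lean 2 and lean 3, highest in Cr2, Acadm (0.39 ± 0.13, adjusted p 0.0432) and Etfdh (0.40 ± 0.11, 0.0224) passed, as did 31.1% of all genes in that direction. Hadh then stood at -0.25 ± 0.09 (0.0509) and Dbi at -0.21 ± 0.10 (0.115). The summed level of 3 endothelial markers was 363.5 to 428.1 CPM in DIO and 193.9 to 318.9 CPM in lean libraries, with no overlap; 1 of the 3 rose, as did 1 of 4 macrophage markers (Atp6v0d2), and their part was not tested. An F test of the interaction of diet and depot passed for no member over the 4 depots (limma adjusted p 0.0573 for Acadm to 0.156 for Acadl), where 38.6% of 2176 genes passed; after rescaling it passed for the 5 enzymes (0.0170 for Etfdh to 0.0359 for Acadl), not for Dbi (0.0529), and for 33.2% of genes.

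**Figure D4:**
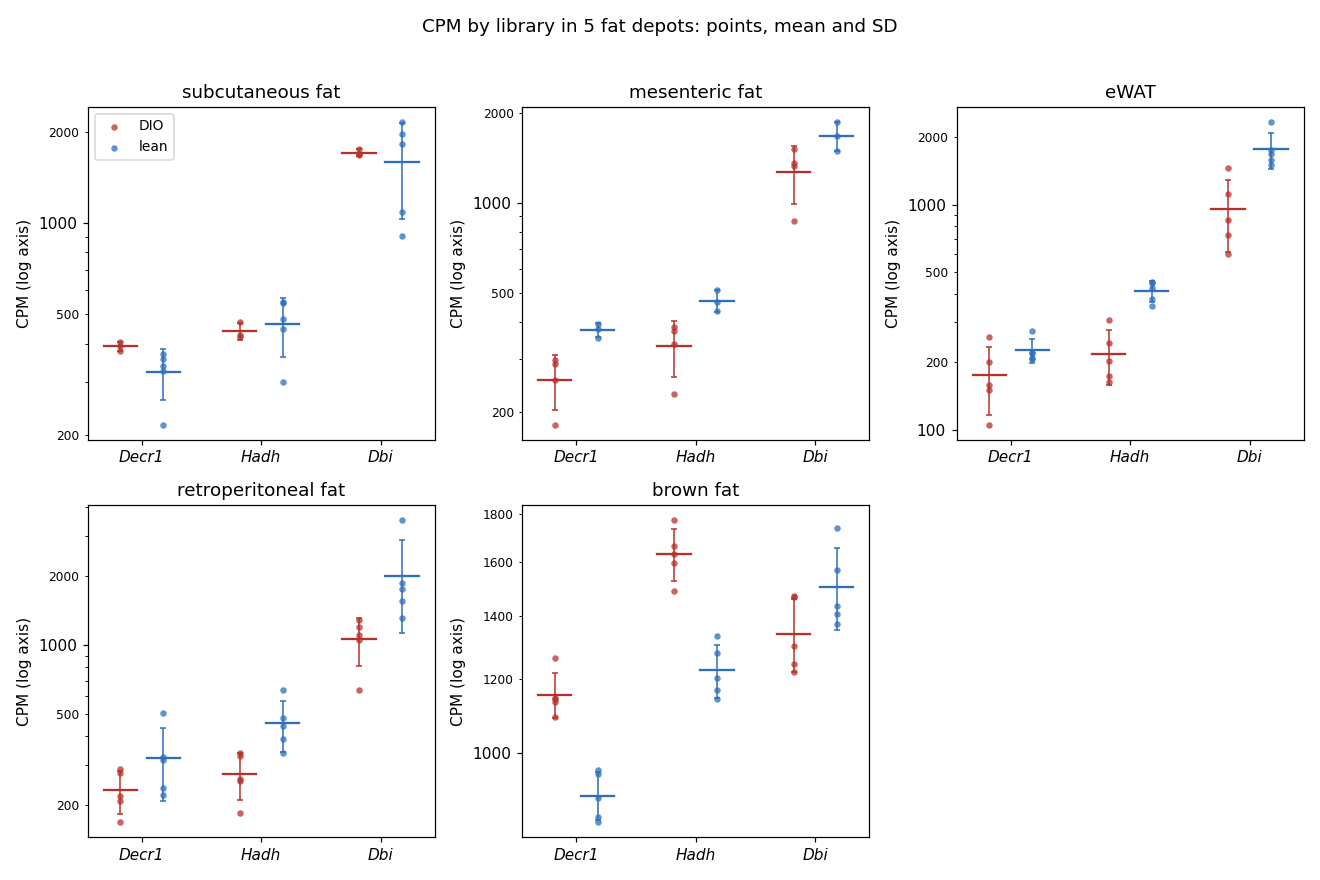
CPM of Decr1, Hadh and Dbi in each library of 4 white fat depots and brown fat on log axes, DIO in red left of lean in blue, with the mean and SD of each group. Hadh and Dbi are lower in DIO eWAT and retroperitoneal fat, and Decr1 and Hadh are higher in DIO brown fat.

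In jejunum 2 members rose, Acadl and Dbi. Acadl had 338, 280.1, 315, 231 and 355 CPM in DIO libraries, against 126, 92.4, 88.7, 68.7 and 126 CPM in lean libraries. The groups were far apart, and the change of 1.61 ± 0.18 (limma adjusted p 0.000323) was the largest of the 126. Lean jejunum had the lowest Acadl outside the brain, and every DIO jejunum library stood above every lean library of duodenum, ileum and colon. Acadm, the sister dehydrogenase, had 179, 167, 169.7, 161 and 190.3 CPM in DIO libraries, against 199, 195, 178, 182 and 199.8 CPM in lean libraries, with overlapping groups (-0.14 ± 0.10, 0.395). Dbi had 1083, 818, 1025, 818 and 697 CPM in DIO libraries, against 591, 635, 481, 543 and 547 CPM in lean libraries. The Dbi groups were apart as well (0.65 ± 0.16, 0.0261). The shares of 2021 genes called higher and with groups apart upward were 3.56% and 3.71%. Acadl passed without any 1 library, while Dbi lost its call without DIO 1, DIO 3, DIO 4, lean 2, lean 3, lean 4 or lean 5 (adjusted p 0.0503 to 0.0752) and passed without DIO 5 (0.0134), the library highest in Cr2. Hadh (-0.057 ± 0.14), Decr1 (0.073 ± 0.14) and Etfdh (0.16 ± 0.11) had overlapping groups and did not pass. Of 3 enterocyte markers 1 rose, and their summed level was 8789 to 30280 CPM in DIO and 4355 to 10690 CPM in lean jejunum; its part in the result was not tested.

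In duodenum no member passed, and 0.289% of 2075 genes were called higher. Acadl had 299, 242, 265, 277 and 368 CPM in DIO libraries, against 227, 169.8, 135, 145 and 202 CPM in lean libraries. Its groups were apart (0.73 ± 0.16, limma adjusted p 0.1), as were those of Etfdh (0.27 ± 0.092, 0.179) and of 1.64% of genes. Hadh had 748, 458, 641, 604 and 719 CPM in DIO libraries, against 1090.4, 800.0, 529, 923 and 850.3 CPM in lean libraries, and the groups overlapped through lean 3. Without lean 3 Acadl passed as higher (0.65, adjusted p 0.0128) and Hadh as lower (-0.54, 0.0282), in a fit that called 30.4% of all genes higher and 8.87% lower. In ileum Acadl had 194, 189, 174, 154 and 236 CPM in DIO libraries, against 149, 126, 131, 111 and 171 CPM in lean libraries, with overlap at the edges (0.46 ± 0.14, 0.846). In colon it had 159, 153, 159, 145 and 173 CPM in DIO libraries, against 223, 162, 194, 159 and 188 CPM in lean libraries (-0.22 ± 0.10, 0.267). No member and 0% of all genes passed in ileum or colon by limma (other fits called 0 genes in ileum and 2 in colon with edgeR, 3 and 165 with DESeq2, 0 and 530 with array weights and 0 and 81 with the index as covariate), although 115 of 2073 and 422 of 2222 genes had an unadjusted p under 0.05. Without ileum DIO 1, highest in Cr2, Acadl stood at 0.45 ± 0.16 there; without colon lean 3, highest in Fabp4, it stood at -0.20 ± 0.11 and Etfdh at -0.27 ± 0.12, and no member passed in either segment.

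The diet effect on Acadl differed among the 4 segments (F test of the interaction in limma, adjusted p 7.85e-06), as did that on Etfdh (0.0234) and Dbi (0.0256); 16.1% of 2137 genes passed this test. The order for Acadl was jejunum, duodenum, ileum and colon, from 1.61 ± 0.18 to -0.22 ± 0.10. Etfdh had 126, 119.7, 149, 139 and 160.3 CPM in DIO libraries, against 119, 118, 105, 113 and 117 CPM in lean libraries in duodenum and 101, 108, 113, 101 and 124 CPM in DIO libraries, against 165, 127, 147, 112 and 127 CPM in lean libraries in colon, differences of opposite sign (0.27 ± 0.092 and -0.30 ± 0.11) that did not pass in either segment alone. Acadm (0.365), Hadh (0.231) and Decr1 (0.992) did not pass the interaction test. Relative to the shift of the whole scale, 0.11 in duodenum and -0.13 in jejunum, the same 3 genes passed, with 14.3% of all genes.

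**Figure D5:**
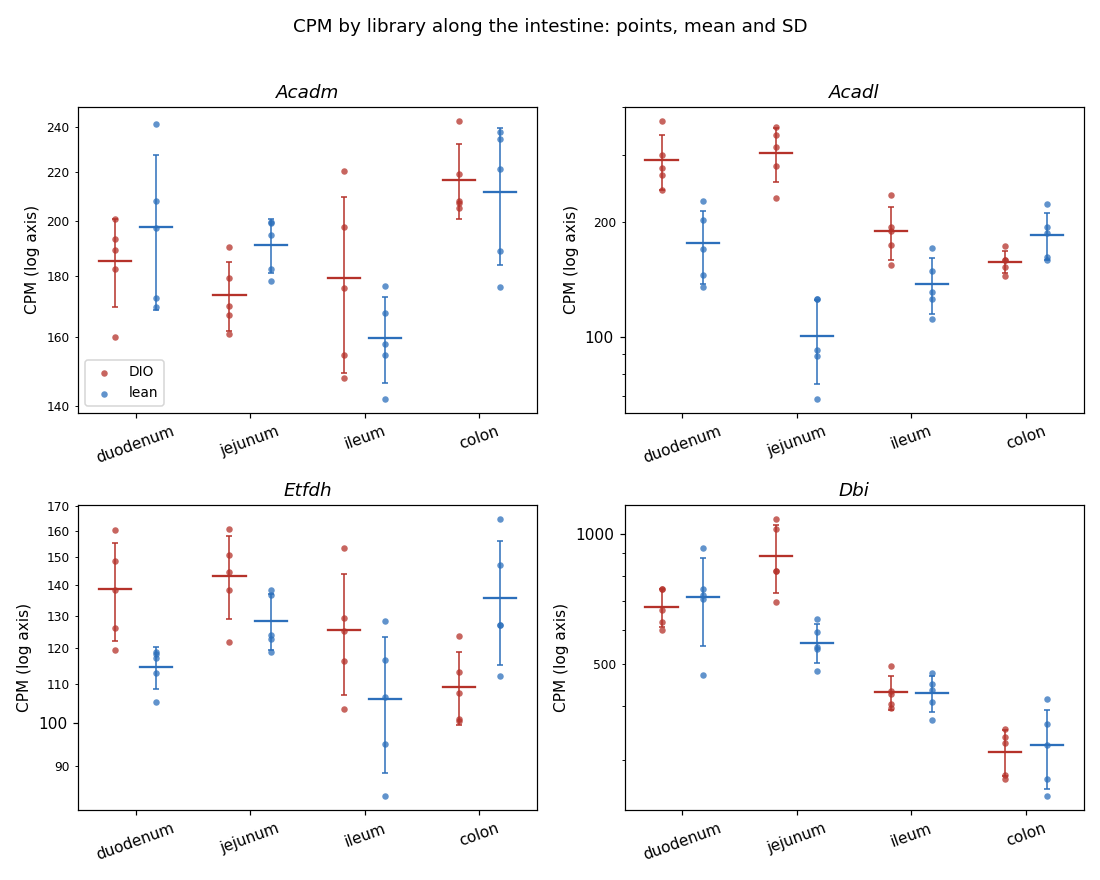
CPM of Acadm, Acadl, Etfdh and Dbi in each library of 4 segments of the intestine on log axes, DIO in red left of lean in blue, with the mean and SD of each group. Acadl is apart in duodenum and jejunum while Acadm overlaps in all 4 segments.

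No member was called in the brain: over hypothalamus, cerebral cortex, midbrain and brainstem, and cerebellum, the 24 differences ran from -0.069 to 0.20 with SE of at most 0.16, and the lowest unadjusted p was 0.0732 (limma adjusted p 0.842). No member had groups apart there, and 0% of genes were called in any of the 4 regions by limma, edgeR or DESeq2. The interaction test among the regions passed for 0% of genes. By limma 16 to 66 genes per region, 0.669% to 2.83% of those tested, had an unadjusted p under 0.05. That is fewer than this threshold gives on average without any effect, and the cause was not tested. The lack of calls in brain thus does not show the lack of a diet effect. In kidney Acadm had 719.7, 679, 607, 719 and 629 CPM in DIO libraries, against 859, 824, 664, 776 and 755 CPM in lean libraries. The groups overlapped (-0.21 ± 0.076, limma adjusted p 0.215), and the other 5 members stood at 0.012 to 0.12 with 0.0505% of 1979 genes called. In the lesser curvature of the stomach Etfdh (0.48 ± 0.29), Dbi (-0.43 ± 0.27) and Acadm (0.39 ± 0.23) had the largest differences, with overlap and no call (0.0493% of 2029 genes called), and relative to a shift of 0.19 of the whole scale Acadm stood at 0.20 ± 0.15, Etfdh at 0.28 ± 0.21 and Dbi at -0.63 ± 0.33. Without lean 2 and lean 5 of the stomach, highest in Tnnc2 and Apoa2, Acadm stood at 0.46 ± 0.27, Etfdh at 0.37 ± 0.31 and Dbi at -0.31 ± 0.33, and no member passed. Tnnc2 ran from 52.8 to 208 CPM in all DIO and from 211 to 1530 CPM in all lean stomach libraries. Leaving out these libraries thus did not even out this muscle gene, and its part was not tested.

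In adrenal all 6 members were lower on average in DIO, and no call was made (0.128% of 2343 genes called lower). Acadl had 247, 298, 343, 435 and 395 CPM in DIO libraries, against 1430.3, 617, 630.4, 680.1 and 552 CPM in lean libraries. The groups were apart (-1.12 ± 0.29, limma adjusted p 0.257), as for 1.49% of genes. The highest value, in lean 1, and the lowest, in DIO 1, came from libraries without the cortex marker. Without the 3 libraries lacking Hsd3b1, Acadl stood at -0.67 ± 0.16 (0.157), Acadm at -0.24 ± 0.17 (0.436), Hadh at -0.018 ± 0.16 (0.958) and Dbi at -0.53 ± 0.27 (0.325), where with all libraries Hadh had stood at -0.47 ± 0.28 and Dbi at -0.22 ± 0.40. DIO 1 also had 3651 CPM of the hepatocyte gene Apoa2, against 0.854 to 41.8 CPM in the other 9 libraries. The macrophage markers summed to 228.6 to 2078 CPM in DIO and 52.5 to 277 CPM in lean adrenals, and the lymphocyte markers to 38.7 to 197 CPM in DIO and 11.9 to 36.8 CPM in lean adrenals. The 2 fat cell markers summed to 1199 to 7316 CPM in DIO and 2196 to 8677 CPM in lean adrenals. Among the libraries with Hsd3b1, Fabp4 had 1184, 2492 and 1304 CPM in DIO, against 6519, 3196, 3414 and 2175 CPM in lean libraries. Leaving out libraries thus did not even out this fat gene. The part of these markers was not tested. The whole scale was shifted by 0.15 in this tissue, and relative to it Acadl stood at -1.27 ± 0.40 without passing.

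Of 51 further genes listed for fatty acid activation, the carnitine shuttle, other dehydrogenases, other steps of the cycle, related pathways and acyl-CoA-binding proteins, 13 were in the deposited values, and 9 to 12 of them passed the filter on low values in a tissue. In liver 6 of 12 tested rose and none fell, where 20.9% of all genes rose: their median change was 0.38, against 0.089 over all genes there. Hsd17b10, a further hydroxyacyl-CoA dehydrogenase, had 157 ± 17.5 CPM in DIO and 99.5 ± 14.1 CPM in lean libraries (0.65 ± 0.11, adjusted p 0.00136). Crat, carnitine acetyltransferase, had 115 ± 8.91 CPM in DIO and 63.7 ± 28.2 CPM in lean libraries (0.94 ± 0.23, adjusted p 0.0108). Among the others, Slc27a4, a fatty acid transporter, Acsl3, an acyl-CoA synthetase, and Acad9, an acyl-CoA dehydrogenase also needed for complex I assembly, rose as well.

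In the muscles Crat rose and Ivd, which oxidises isovaleryl-CoA from leucine, fell, in both soleus and red gastrocnemius, and the other 8 of 10 tested did not pass in either. Crat had 718 ± 25.1 CPM in DIO and 586 ± 4.15 CPM in lean libraries (0.29 ± 0.03, adjusted p 0.000112) in red gastrocnemius and changed by 0.31 ± 0.05 in soleus (limma adjusted p 0.0112). Ivd changed by -0.40 ± 0.057 and -0.37 ± 0.072 there (0.00174 and 0.0323), where 1.77% and 0.591% of all genes were called lower. The median over the 10 genes was -0.034 in red gastrocnemius and -0.052 in soleus, where 6 and 5 of the 6 members passed.

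In jejunum 3 of 11 rose and none fell, where 3.56% of all genes rose. Of these, Slc27a2, a very-long-chain acyl-CoA synthetase and transporter, had 251 ± 43.4 CPM in DIO and 82.2 ± 21.5 CPM in lean libraries (1.62 ± 0.18, adjusted p 0.000323), and Acsl3 had 60.9 ± 15.4 CPM in DIO and 35.8 ± 4.77 CPM in lean libraries (0.72 ± 0.17, adjusted p 0.0255). In brown fat 5 of 11 fell and none rose, where 15.1% of all genes fell, with Acsl3 at 26.1 ± 4.10 CPM in DIO and 62.6 ± 14.2 CPM in lean libraries (-1.21 ± 0.15, adjusted p 6.22e-05) and Ivd at 231 ± 18.9 CPM in DIO and 288 ± 14.5 CPM in lean libraries (-0.32 ± 0.065, adjusted p 0.00221). In eWAT Ivd fell most, with 88.1 ± 39.3 CPM in DIO and 283 ± 64.2 CPM in lean libraries (-1.74 ± 0.25, adjusted p 7.23e-05), and Hsd17b10 and Crat fell with it, while Acsl4 and Acbd3 rose; 36.3% of all genes rose there and 17.8% fell. Hsd17b10 and Crat also fell in mesenteric fat (-0.74 ± 0.10 and -1.08 ± 0.17) and retroperitoneal fat (-0.90 ± 0.19 and -0.50 ± 0.15).

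The citric acid cycle and the respiratory chain use what fatty acid oxidation yields. All 3 citric acid cycle genes tested, Idh3b, Idh3g and Fh1, fell in mesenteric fat, eWAT and retroperitoneal fat, with Idh3b at 135 ± 8.89 CPM in DIO and 225 ± 19.2 CPM in lean libraries (-0.73 ± 0.11, adjusted p 0.000114) in eWAT. Of 15 respiratory chain genes 12 fell in mesenteric and 12 in eWAT, 5 in retroperitoneal and 6 in subcutaneous fat, and none rose in these depots, where 6.90%, 17.8%, 10.0% and 3.64% of all genes fell. In red gastrocnemius 3 of 15 rose, where 3.29% of all genes rose, with Ndufb3 at 0.21 ± 0.043 (0.0218), and in soleus none passed. In liver 1 rose (Ndufs1, 0.27 ± 0.062) and 3 fell, where 6.06% of all genes fell, and in brown fat 1 rose and 6 fell, where 29.0% rose and 15.1% fell.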

How the data were processed

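Poly(A) RNA of mouse tissues was sequenced as stranded libraries, per the labels' protocols, and the authors deposited CPM, the reads of each gene scaled to a common library total. FastQC, STAR, HTSeq and DESeq2 are named in the submitters' processing notes; for versions, genome build and annotation, the sources used here give nothing. The values were whole multiples of 1 read (100% within 0.001 reads), so reads were recovered. Genes averaging 10 CPM or more in a tissue were tested in limma 3.58.1 (R 4.3.3) on log2(CPM + 1), DIO against lean, with trended variances and Benjamini-Hochberg adjustment at 0.05 over all genes of the tissue; limma F tests compared tissues. edgeR 4.0.16 and DESeq2 1.42.0 on the recovered reads, median-ratio rescaling, other filters and pseudocounts, a fit over all tissues, array weights, an index covariate and leaving out libraries were the alternatives. limma called 0 to 1166 genes per tissue and edgeR's quasi-likelihood test 0 to 1173. The tests were checked on simulated data.

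The members and lists were chosen with earlier results of these data known. Named are the members, up to 4 genes per list and tissue with the lowest adjusted p, and the 3 genes most like each member. Replicate numbers follow accession order and were not used to pair libraries. In heart, libraries 1 and 2 of both diets had 1933 to 2110 CPM of the muscle gene Ttn, and libraries 3 to 5 had 4351 to 5666 CPM. In soleus the same split was 6652 to 7075 CPM against 13210 to 16130 CPM. What sets these libraries apart was not tested, and the main fits in heart and soleus did not take this split into account. No 2 libraries of a group agreed within sampling noise (398 pairs, lowest chi-square per degree of freedom 3.48). The table's 1 column that matched no sample and 1 incomplete gene were not used. It holds 13.0 to 23.1% of each library's reads. The labels speak of 19 tissues, and 21 were given. Some listed genes and 1 promoter are not reported here.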

Additional observations from a re-analysis of the deposited data

Results flagged for a closer look

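Of 240 sets of 5 or 4 libraries of 1 gene, tissue and diet, 13 held a library far from the others; chance flags about 1 in 20 such sets. In adrenal, lean 1, a library without Hsd3b1, stood far above the other lean libraries for Acadm (1243 CPM, the others 587 to 766), Acadl (1430 CPM, the others 552 to 680.1) and Etfdh (567.5 CPM, the others 237 to 328). In white fat, Dbi was high in retroperitoneal lean 3 (3525 CPM, the others 1312 to 1865) and eWAT lean 2 (2320 CPM, the others 1504 to 1740), and Decr1 in eWAT lean 5 (273.7 CPM, the others 206 to 219.9). In heart, lean 3 had 190.8 CPM of Dbi and the other lean libraries 42.8 to 85.5. In brown fat, DIO 4 had 1354 CPM of Etfdh and the other DIO libraries 1083 to 1141. In colon, DIO 1 had 85.38 CPM of Decr1 and the other DIO libraries 107 to 115.

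In brain the distances were small in CPM. Hypothalamus lean 5 had 43.18 CPM of Acadm (the others 38.8 to 40.0), hypothalamus DIO 3 had 42.67 CPM of Acadl (the others 48.1 to 49.6), hypothalamus DIO 1 had 26.91 CPM of Decr1 (the others 23.8 to 24.4), and cortex lean 3 had 36.43 CPM of Acadm (the others 29.3 to 30.9).

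The diet effect differed among the 4 intestinal segments, by the interaction F test in limma, for Acadl (adjusted p 7.85e-06), Etfdh (0.0234) and Dbi (0.0256).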

How the results depend on the processing

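No paired analysis was possible because the labels give no replicate numbers. Of the member changes recomputed under the alternatives, 2180 kept their direction and their side of the threshold, 94 newly passed and 31 no longer passed in the same direction, and 119, in 33 pairs of gene and tissue, changed sign; none of these 119 passed in either fit. The first values of those 33 pairs were at most 0.185 in size, among them Acadm in mesenteric fat (0.021 without DIO 2) and retroperitoneal fat (0.070 without DIO 3 and lean 2). The main numbers of calls were 21 higher and 5 lower. Lower calls numbered 16 with DESeq2, 11 with edgeR, 12 after rescaling, 15 with 1 fit over all tissues, 15 with array weights and 3 with no filter; higher calls numbered 36 with array weights. Members past the threshold were, with DESeq2, 5 in mesenteric fat, 5 in eWAT, 4 in retroperitoneal fat, 3 in heart and 1 in colon; with edgeR, and also after rescaling, 4 in mesenteric fat and 4 in eWAT. Of all genes, DESeq2 called 36.4% in mesenteric fat, 57.7% in eWAT, 42.4% in retroperitoneal fat, 0.742% in heart and 7.43% in colon, and edgeR 557 of 2232 in mesenteric fat and 1173 of 2155 in eWAT. With array weights they were 6 in heart, 5 in stomach, 4 in eWAT, 3 in adrenal, 3 in duodenum, and 2 each in colon, mesenteric and subcutaneous fat; the same fits called 46.3% in heart, 59.7% in stomach, 63.9% in eWAT, 4.10% in adrenal, 38.3% in duodenum, 23.9% in colon, 70.8% in mesenteric fat and 43.0% in subcutaneous fat of all genes. With 1 fit over all tissues they were 5 in adrenal, 4 in eWAT, 3 in red gastrocnemius, 3 in stomach, 2 each in duodenum, mesenteric and subcutaneous fat, and 1 each in brown fat, soleus and heart, with 28.9% in adrenal, 56.3% in eWAT, 0.610% in red gastrocnemius, 16.6% in stomach, 15.8% in duodenum, 53.0% in mesenteric fat, 27.8% in subcutaneous fat, 17.4% in brown fat, 0.296% in soleus and 0.399% in heart of all genes. With the index as covariate they were 2 in heart, 2 in liver, 1 in EDL and 1 in duodenum, and with no filter 1 in jejunum, 1 in retroperitoneal fat and 0 in mesenteric fat. Without the libraries that stood apart by marker genes they were 2 in subcutaneous fat, 2 in mesenteric fat and 1 in retroperitoneal fat, and 3 in heart without lean 3 and lean 5; these sets were chosen after seeing the data. The white fat interaction passed for 5 members after rescaling. Leaving out 1 library at a time gave 0 to 2 members in mesenteric fat, 0 to 2 in duodenum, 0 to 5 in heart, 1 to 2 in jejunum, 2 to 4 in eWAT and 0 to 3 in the white fat interaction. The cause of these differences was not tested. After rescaling, genes called higher and lower numbered 189 and 177 in liver (355 and 103 before it), 418 and 392 in brown fat (507 and 263), and 102 and 58 in jejunum (72 and 133). Each member had at least 183 reads in every library.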

Other observations

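The balance of the 2 acyl-CoA dehydrogenases was looked at after Acadl had been seen to differ in jejunum, as log2 of Acadl over Acadm within each library, and is given as a description with no test. In jejunum it was 0.80 ± 0.17 in DIO and -0.97 ± 0.31 in lean libraries (SD, n = 5 each), and in duodenum it was 0.64 ± 0.14 in DIO and -0.19 ± 0.12 in lean libraries (SD, n = 5 each). In EDL it ran from -0.23 to -0.036 in 5 DIO and from -0.52 to -0.34 in 4 lean libraries, a difference of 0.31. Red gastrocnemius was higher in DIO as well (difference 0.19), and liver (-0.28) and colon (-0.26) were lower. The DIO and lean libraries did not overlap in these 6 tissues, and overlapped in the other 15.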
